A study of Rattus norvegicus with 6 samples.

Results

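Fibronectin, tenascins, versican and the SPARC-like proteins are matricellular or provisional matrix proteins, which sit among the structural fibres of a tissue and tune how its cells attach and respond. The 9 genes described here were chosen as Fn1, Tnc, Tnxb, Vcan, Sparc, Sparcl1, Smoc2, Cilp and Tgfbi by their gene symbols, with earlier results of these data known. Of these, 8 matched a gene name among 32883 named rows of the deposited counts, each matching 1 row, and Tnxb is not analysed here. All 8 passed the filter on low counts.

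RNA was measured in hearts of wild-type male Sprague–Dawley rats, an outbred strain, aged 8 weeks. In the first group, 3 rats were injected with ISO subcutaneously for 7 days at a daily dose of 1.5 mg/kg, and in the second, 3 rats had the same volume of saline over the same 7 days. The labels do not spell ISO out. It is taken to mean isoproterenol, which activates beta-adrenergic receptors and is used to model myocardial hypertrophy and fibrosis, the subject of the series. Each library came from 1 rat, and levels are given as CPM, read counts scaled to library size, after TMM correction for library composition.

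In the healthy heart, resting fibroblasts and vascular cells make most of this matrix. After injury or overload, fibroblasts are known to add a provisional matrix of fibronectin, tenascin C and versican, on which collagen fibres are then laid down. SPARC binds collagens and assists their assembly. CILP binds TGF-beta and dampens its signalling, and TGFBI is, as its name says, a protein induced by TGF-beta. Because the samples were bulk tissue, more cells of a type and more RNA per cell cannot be told apart.

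The libraries held 14880391 to 17299589 counts. Markers of heart muscle, such as Myh6 and Tnnt2, were abundant in all 6 libraries, with a summed level of 28050.0 to 43415.4 CPM in ISO and 37567.7 to 50136.6 CPM in saline over 7 genes. ISO replicate 3 lay far above the other ISO libraries for Fn1 and Tnc. ISO replicate 1 held atrial RNA, with 210 CPM over 6 atrial markers such as Myl7, against 13.1 to 17.2 CPM in the other ISO libraries and 12.9 to 18.5 CPM in saline. Values without single libraries are therefore given below where they changed a call.

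Across the group, 1 of the 8 genes, Cilp, was called higher in ISO hearts and none was called lower, at an adjusted p under 0.05 by edgeR's quasi-likelihood test. Over all 13766 tested genes, 1.47% were called higher. An unadjusted edgeR p under 0.05 with a higher level in ISO was reached by 6 of the 8, where 12.0% of all tested genes reached it. The exceptions were Sparcl1 and Smoc2. For 4 genes, Fn1, Tnc, Sparc and Cilp, the lowest ISO library exceeded the highest saline library, as it did in 14.1% of all tested genes. The median log2 fold change of the 8 genes was 0.86, against 0.02 over all tested genes.

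**Figure D1:**
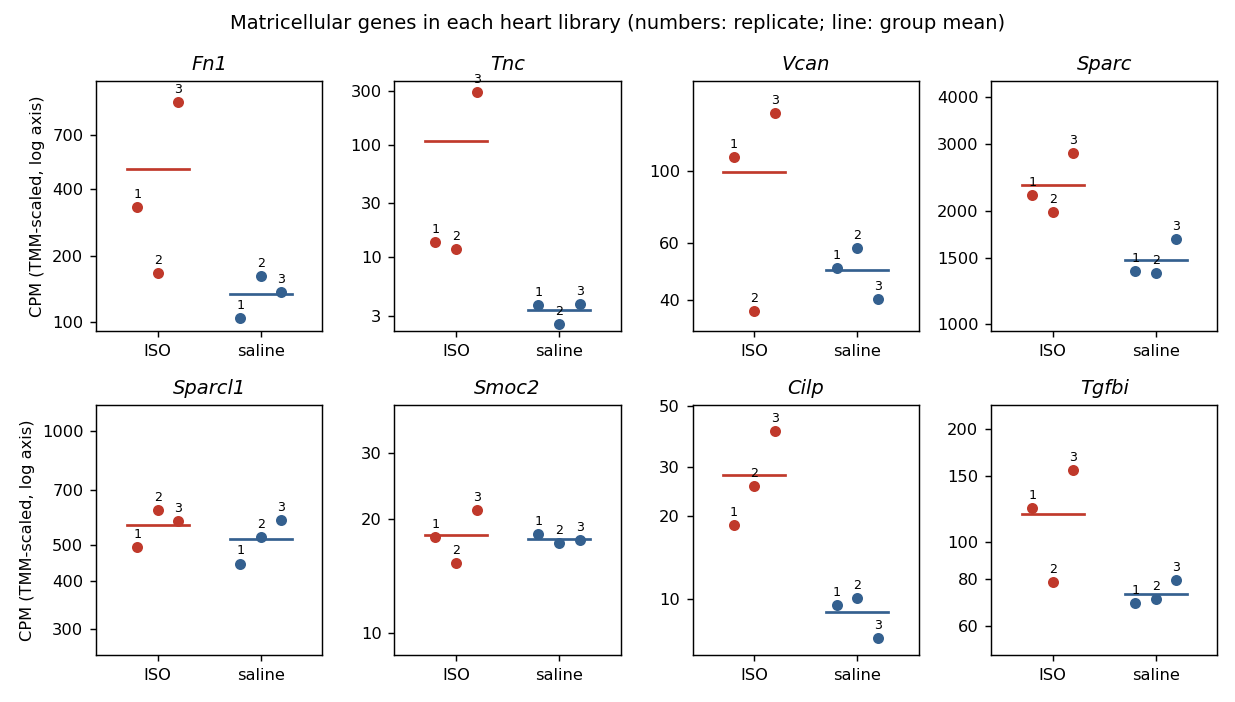
Level of each matricellular gene in CPM, on a log axis, with ISO libraries to the left of saline libraries. Points are single rats numbered by replicate and lines are group means. ISO replicate 3 is the highest ISO library in every panel except Sparcl1, and the Tnc group mean of 106 CPM in ISO lies between 1 library at 294 CPM and the others at 13.5 and 11.7 CPM.

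The first set comprised the genes of the provisional matrix. Fn1, which encodes fibronectin, the integrin-binding glycoprotein that seeds other matrix fibres (ENSRNOG00000014288), had 331, 167 and 986 CPM in ISO replicates 1 to 3, against 105, 162 and 137 CPM in saline replicates 1 to 3. All ISO libraries lay above all saline libraries, but ISO replicate 2 exceeded the highest saline library only narrowly. The group means were 494 ± 433 CPM in ISO and 135 ± 28.1 CPM in saline (SD, n = 3 each). The log2 fold change was 1.87 (SE 0.56, 95% interval 0.59 to 3.16) and Fn1 was not called (edgeR adjusted p = 0.101). Without ISO replicate 3 it was 0.89 (edgeR adjusted p = 0.144), and without ISO replicate 2 it was 2.28 and was called (edgeR adjusted p = 0.03).

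Tnc encodes tenascin C, a large hexameric glycoprotein that is scarce in the normal adult heart and appears at sites of remodelling (ENSRNOG00000058645). It had 215, 188 and 5044 counts in ISO replicates 1 to 3, against 55, 40 and 60 counts in saline replicates 1 to 3. These corresponded to 13.5, 11.7 and 294 CPM in ISO and to 3.75, 2.5 and 3.79 CPM in saline. The groups were well separated, yet the ISO libraries fell at very different levels. Relative to the saline mean on the log2 scale, ISO replicates 1 and 2 were 3.98-fold and 3.47-fold higher and ISO replicate 3 was 86.2-fold higher.

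With all libraries, the log2 fold change of Tnc was 4.99 (SE 1.31, 95% interval 1.98 to 8.0) and the gene was not called (edgeR adjusted p = 0.0757). Leaving out ISO replicate 3 gave a smaller change with a smaller error, 1.92 (SE 0.24), and Tnc was then called (edgeR adjusted p = 0.0129). Leaving out ISO replicate 2 also brought the call (log2 fold change 5.52, edgeR adjusted p = 0.0374). With all libraries voom gave a lower value, 3.46 (SE 1.92, voom adjusted p = 0.326), as did edgeR with the replicate number as a block, 3.56 (SE 0.92, edgeR adjusted p = 0.131). The ISO library nearest to saline, replicate 2, lay 1.80 above the saline mean on the log2 scale.

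Vcan encodes versican, a chondroitin sulfate proteoglycan that binds hyaluronan (ENSRNOG00000029212). It had 110, 36.9 and 151 CPM in ISO replicates 1 to 3, against 50.2, 57.7 and 40.3 CPM in saline replicates 1 to 3. The groups overlapped, because ISO replicate 2 lay below every saline library while the other ISO libraries lay above every one. The log2 fold change was 1.01 (SE 0.43, 95% interval 0.04 to 1.99, edgeR adjusted p = 0.205) with all libraries. It was 1.40 (SE 0.19, edgeR adjusted p = 0.0164) without ISO replicate 2 and 0.58 (edgeR adjusted p = 0.439) without ISO replicate 3.

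The second set comprised those of the genes described here that belong to the SPARC family, whose proteins share a calcium-binding domain. Sparc itself, also called osteonectin (ENSRNOG00000012840), had 2204.6, 1981.5 and 2845.3 CPM in ISO replicates 1 to 3, against 1387.4, 1370.4 and 1682.5 CPM in saline replicates 1 to 3. All ISO libraries were above all saline libraries, and the spread within each group was small beside that of Fn1 and Tnc. The means were 2343.8 ± 448 CPM in ISO and 1480.1 ± 176 CPM in saline. The log2 fold change of 0.66 (SE 0.18, 95% interval 0.26 to 1.07) was not called (edgeR adjusted p = 0.0782), whereas DESeq2 called it at an adjusted p of 0.00165. Without ISO replicate 2 it was 0.77 (SE 0.16) and was called (edgeR adjusted p = 0.041).

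Sparcl1 encodes hevin, the closest relative of SPARC among these genes (ENSRNOG00000015093). It had 492, 619 and 579 CPM in ISO replicates 1 to 3, against 446, 524 and 580 CPM in saline replicates 1 to 3, so the groups overlapped. Its log2 fold change was 0.13 (SE 0.15, edgeR adjusted p = 0.654), with a 95% interval of −0.21 to 0.46. Sparcl1 was also the single gene of the 8 for which ISO replicate 3 was not the highest ISO library.

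Sparc and Sparcl1 were compared directly by the ratio of their counts within each library, which does not depend on how libraries are scaled. The ratio was 4.48, 3.2 and 4.91 in ISO replicates 1 to 3, against 3.11, 2.61 and 2.9 in saline replicates 1 to 3. The lowest ISO ratio exceeded the highest saline ratio. The mean difference was 0.53 on the log2 scale, with means of 2.05 ± 0.33 in ISO and 1.52 ± 0.13 in saline (SD, n = 3 each). The exact two-sided permutation test gave p = 0.1, the smallest value that 3 against 3 libraries allow, so this design could not reach 0.05.

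Smoc2 encodes a SPARC-related modular calcium-binding protein (ENSRNOG00000014166). It had 18, 15.3 and 21.2 CPM in ISO replicates 1 to 3, against 18.3, 17.3 and 17.6 CPM in saline replicates 1 to 3. ISO libraries lay on both sides of the narrow saline range. The log2 fold change was 0.04 (SE 0.15, edgeR adjusted p = 0.909), with a 95% interval of −0.3 to 0.37, and it was −0.08 without ISO replicate 3.

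The sequences just upstream of Tnc, Sparc and Sparcl1 are shown because Tnc had the largest log2 fold change of the 8 genes and Sparc and Sparcl1 are close relatives. They are RefSeq sequences of build GRCr8, written 5′ to 3′ on the strand of each gene, at chr5:82476198-82476381 on the minus strand for Tnc, chr10:40038817-40039066 on the minus strand for Sparc and chr14:5937234-5937483 on the plus strand for Sparcl1. Capitals mark matches on either strand to TGANTCA (AP-1), CAGACA (part of the CAGA box bound by SMAD proteins), GGAATG (TEAD), GGGCGG (Sp1) or TATAAA (a core promoter element).
Tnc: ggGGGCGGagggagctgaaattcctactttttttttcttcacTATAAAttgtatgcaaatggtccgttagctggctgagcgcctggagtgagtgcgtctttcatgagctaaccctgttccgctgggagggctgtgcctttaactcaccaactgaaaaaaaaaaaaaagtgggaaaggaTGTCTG
Sparc: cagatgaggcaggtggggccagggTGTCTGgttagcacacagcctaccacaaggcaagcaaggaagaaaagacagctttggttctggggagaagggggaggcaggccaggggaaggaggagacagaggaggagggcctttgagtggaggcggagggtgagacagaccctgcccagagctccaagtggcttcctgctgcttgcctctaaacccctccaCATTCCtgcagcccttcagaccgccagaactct
Sparcl1: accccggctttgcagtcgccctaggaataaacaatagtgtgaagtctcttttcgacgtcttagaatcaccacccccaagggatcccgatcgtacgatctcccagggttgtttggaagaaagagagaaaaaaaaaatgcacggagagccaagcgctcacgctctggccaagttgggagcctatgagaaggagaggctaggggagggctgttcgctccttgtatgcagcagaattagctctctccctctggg

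The 184 bases of Tnc held 1 match to CAGACA, which occurs in 13.2% of 27457 promoter windows of the same length and position, 1 to GGGCGG, which occurs in 23.2%, and 1 to TATAAA, which occurs in 9.24%. The 250 bases of Sparc held 1 match each to CAGACA and GGAATG, which occur in 16.9% and 11.8% of 250-base windows. Sparcl1 held no match to any of the 5 motifs, and no matches overlapped each other. TGANTCA, found in 6.36% of 250-base windows and 4.81% of the 184-base windows, GGGCGG, found in 32.4% of 250-base windows, and TATAAA, found in 13.1% of them, had no match in Sparc. The Tnc and Sparcl1 windows gave no match to GGAATG either, and it occurs in 8.83% of the 184-base windows. These matches describe the letters of the windows and are not binding sites.

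The third set comprised the genes tied to TGF-beta. Cilp, which encodes cartilage intermediate layer protein, a secreted matrix protein that binds TGF-beta (ENSRNOG00000029911), had 18.5, 25.6 and 40.4 CPM in ISO replicates 1 to 3, against 9.47, 10.1 and 7.2 CPM in saline replicates 1 to 3. The lowest ISO library was well above the highest saline library. Cilp rose 3.15-fold in ISO hearts, with means of 28.2 ± 11.2 CPM in ISO against 8.93 ± 1.54 CPM in saline (SD, n = 3 each) and a log2 fold change of 1.66 (SE 0.29, 95% interval 1.0 to 2.31, edgeR adjusted p = 0.0274). It was also called by DESeq2 and by voom (adjusted p = 0.0452 by voom) and without each ISO library in turn, at 1.88, 1.72 and 1.30 without ISO replicates 1, 2 and 3. The call was lost without saline replicate 1, 2 or 3, where the log2 fold change was 1.69, 1.76 and 1.52 and the edgeR adjusted p 0.0989, 0.0862 and 0.127.

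Tgfbi encodes a secreted protein with fasciclin domains that binds collagens and integrins (ENSRNOG00000012216). It had 123, 78.6 and 155 CPM in ISO replicates 1 to 3, against 69.1, 70.6 and 79.6 CPM in saline replicates 1 to 3. ISO replicates 1 and 3 were above the saline range, and ISO replicate 2 lay within it. The log2 fold change was 0.70 (SE 0.22, 95% interval 0.19 to 1.21, edgeR adjusted p = 0.113). It was called without ISO replicate 2 (log2 fold change 0.93, SE 0.13, edgeR adjusted p = 0.0187) and by DESeq2 with all libraries (adjusted p = 0.0239).

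**Figure D2:**
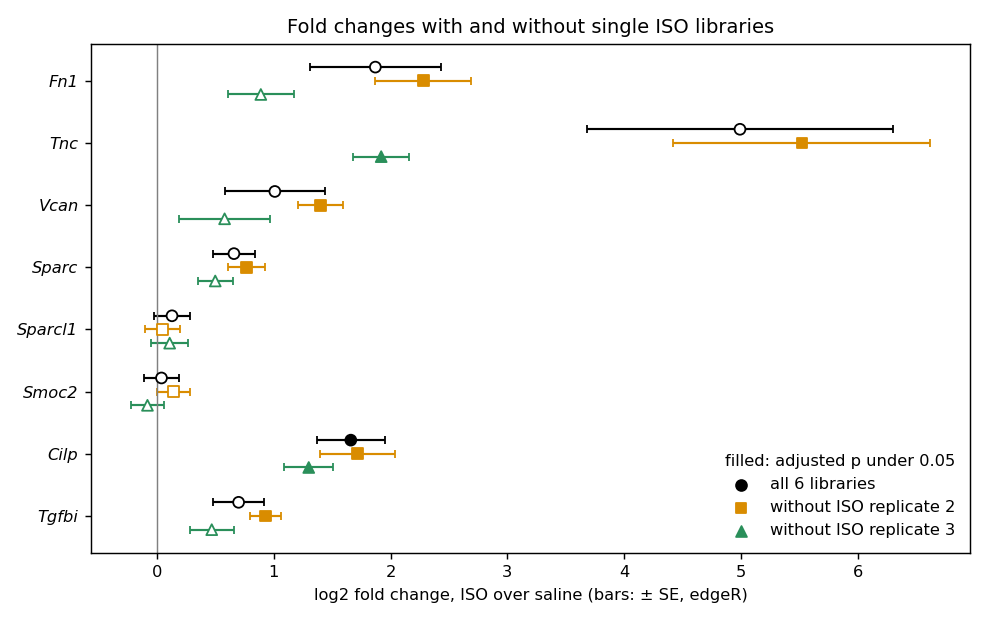
Log2 fold change of ISO over saline for each matricellular gene, with bars of 1 SE from edgeR, for all 6 libraries and for fits without ISO replicate 2 or without ISO replicate 3. Filled symbols mark an adjusted p under 0.05, which Cilp reached in all 3 fits shown, Tnc in both fits that leave out an ISO library, and Fn1, Vcan, Sparc and Tgfbi without ISO replicate 2 alone.

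The 8 genes differed in how far the ISO rats spread. Between the highest and lowest ISO library, the log2 level of Tnc spanned 4.63, that of Fn1 2.56 and that of Vcan 2.04. Between the saline libraries the same genes spanned 0.58, 0.61 and 0.52. Cilp spanned 1.12 in ISO and 0.49 in saline, Tgfbi 0.98 in ISO and 0.2 in saline, and Sparc 0.52 in ISO and 0.3 in saline. For Sparcl1 the span of 0.33 in ISO was no wider than that of 0.38 in saline. ISO replicate 3 was the highest ISO library for 7 of the 8 genes, and ISO replicate 2 was the lowest for 6.

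The median of the 8 genes relative to the saline mean was 0.90, 0.30 and 1.36 on the log2 scale in ISO replicates 1 to 3. The median over all tested genes in the same libraries was 0.01, 0.01 and 0.02. Above the highest saline library lay 6, 5 and 7 of the 8 genes in ISO replicates 1 to 3. The share of all tested genes doing so in each library was not computed, so these counts have no background to be read against. Without ISO replicate 2, edgeR called 6 of the 8 higher, where 3.5% of all tested genes were called higher. Without ISO replicate 3 it called 2 of the 8, Cilp and Tnc, where 1.23% of all were called higher.

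Calls of the 8 genes and calls of all genes both depended on the call rule and on the libraries used. DESeq2 called 3 of the 8 higher, where it called 5.46% of all tested genes higher, and the series' own rule called 4, where it called 8.82%. That rule takes a DESeq2 log2 fold change over 0.5 in either direction with an unadjusted p under 0.05. DESeq2 gave no p for Tnc, so neither DESeq2 nor that rule could call it. Without ISO replicate 1, edgeR called 1 of the 8, namely Cilp, where 0.0645% of all were called higher. None of the 8 was called without saline replicate 1, 2 or 3, where 0.0996%, 0.0427% and 0.0497% of all genes were called higher. Without the filter on low counts 2 of the 8 were called, where 1.6% of all were called higher, and with the replicate number as a block none of the 8 was called, where 0.109% of all were.

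Cell type markers were measured beside these genes, and their calls stand against 1.47% of all tested genes called higher by edgeR. Of 9 resting fibroblast markers, Dpt, Pi16 and Scara5 were called higher and none lower, with a summed level of 4992.7 to 5171.1 CPM in ISO and 3154.2 to 3639.6 CPM in saline. The markers did not all move one way. Col15a1, chosen once its values were known, averaged 48.6 CPM in ISO against 111 CPM in saline, with every ISO library below every saline library, and was not called (log2 fold change −1.19, edgeR adjusted p = 0.0568), whereas DESeq2 called it lower (DESeq2 adjusted p = 0.000329) and so did edgeR without ISO replicate 3 (−0.92, edgeR adjusted p = 0.0435). Of 8 activated fibroblast markers, 4 were called higher, namely Postn, Cthrc1, Aebp1 and Col8a1, and none lower. Fap was not called (log2 fold change 1.02, edgeR adjusted p = 0.103). Meox1 (0.56), Acta2 (0.34) and Ddah1 (−0.2) were not called either, and their groups overlapped. The summed level of the 8 markers was 658, 551 and 2581.5 CPM in ISO replicates 1 to 3. In saline replicates 1 to 3 it was 249, 240 and 217 CPM. Postn alone made up 327, 252 and 2024.6 CPM of the ISO sums. ISO replicate 3 stood apart here as it did for Tnc and Fn1.

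Of 8 macrophage markers, 4 were called higher and none lower, with summed levels of 467 to 774 CPM in ISO and 269 to 315 CPM in saline. None of 7 endothelial markers was called by edgeR, with summed levels of 1110.1 to 1544.1 CPM in ISO and 1215.0 to 1325.7 CPM in saline, and none of 8 smooth muscle and pericyte markers was called by edgeR, with 948 to 1048.6 CPM in ISO and 894 to 987 CPM in saline. Unadjusted edgeR p-values were under 0.05 for 1 endothelial marker, Kdr, which was lower in ISO (log2 fold change −0.56). They were also under 0.05 for 3 smooth muscle and pericyte markers, Pdgfrb, Tagln and Cnn1, all higher in ISO. Of all tested genes, 12.0% were higher in ISO at that p, and the share lower was not computed. DESeq2 called 1 endothelial marker lower, where it called 653 of 13766 tested genes lower. It called 1 smooth muscle and pericyte marker higher, where it called 5.46% of all tested genes higher. Of either list, voom called 0. Markers of valve and tendon cells summed to 139, 60.7 and 53.0 CPM in ISO replicates 1 to 3 and 130, 68.5 and 75.5 CPM in saline replicates 1 to 3, so replicate 1 of each group was highest. Of these markers, none was called higher and 1 lower, the tendon transcription factor gene Scx. It averaged 19.7 CPM in ISO against 39.6 CPM in saline (log2 fold change −1.01, edgeR adjusted p = 0.0498). This call was lost in every fit that left out 1 library, by voom, without scaling and with the replicate number as a block. DESeq2 called 1 marker of this list lower. Epicardial and mesothelial markers summed to 26.7 to 66.7 CPM in ISO and 24.4 to 79.5 CPM in saline, Schwann cell markers to 25.6 to 35.9 CPM in ISO and 19.0 to 27.2 CPM in saline, and adipocyte markers to at most 3.51 CPM in ISO and 2.13 CPM in saline. The part of these cell types in the matricellular values was not tested.

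The levels of the 8 genes were then set against the resting fibroblast markers within each library, as counts per 100 counts of the 9 markers together. The marker sum averaged 5066.1 CPM in ISO and 3423.2 CPM in saline. Gsn made up 2535.0 and 1828.2 CPM of these, and Dcn 1159.2 and 846 CPM, so the measure mainly reflects these genes. On this measure of counts per 100 marker counts, chosen after the data were seen and not tested, Tnc had 0.27, 0.233 and 5.69 in ISO replicates 1 to 3. In saline replicates 1 to 3 it had 0.119, 0.072 and 0.104. Cilp had 0.37, 0.508 and 0.782 in ISO and 0.3, 0.291 and 0.198 in saline. For both genes all ISO libraries lay above all saline libraries.

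Sparc had 44.2, 39.4 and 55.0 per 100 marker counts in ISO replicates 1 to 3 and 44.0, 39.4 and 46.2 in saline replicates 1 to 3, so the groups overlapped on this measure, with a mean log2 difference of 0.08. Fn1, Vcan and Tgfbi overlapped as well, with mean log2 differences of 0.94, 0.23 and 0.08. Sparcl1 lay below saline in every ISO library, at 9.85 to 12.3 against 14.1 to 15.9, and so did Smoc2, at 0.305 to 0.41 against 0.484 to 0.579. The summed level of the markers was higher in ISO, so these values describe proportions and not levels. A gene with equal CPM in both groups falls on this measure, and Sparcl1 and Smoc2 changed little in CPM (log2 fold changes 0.13 and 0.04). The share of all tested genes whose groups do not overlap on this measure was not computed.

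**Figure D3:**
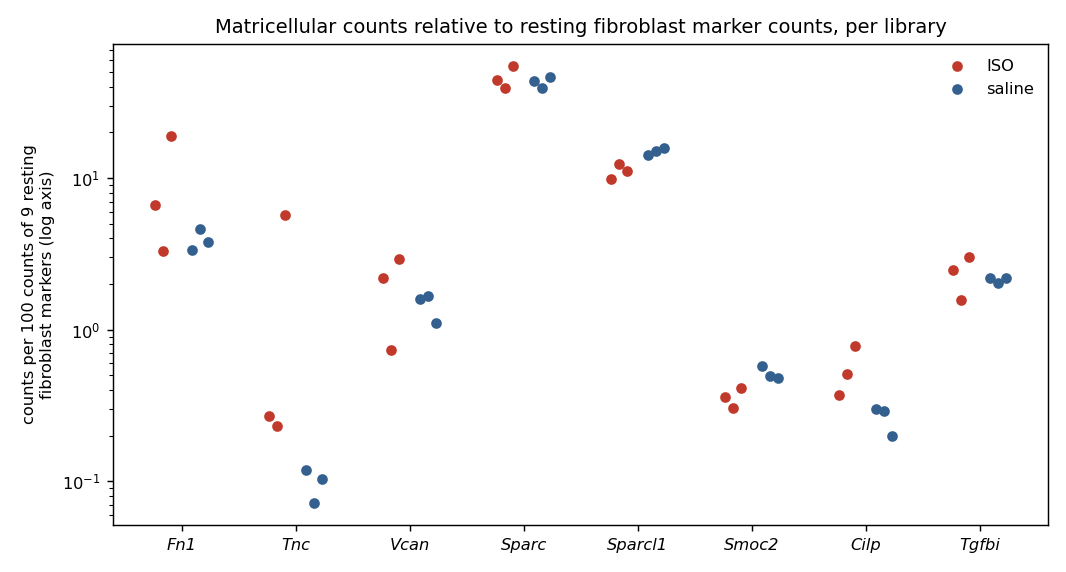
Counts of each matricellular gene per 100 counts of 9 resting fibroblast markers, on a log axis, with ISO libraries to the left of saline libraries and 1 point per rat. Tnc and Cilp lie higher in every ISO library, Sparcl1 and Smoc2 lie lower, and the groups overlap for Fn1, Vcan, Sparc and Tgfbi.

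Relatives of the same protein families were also examined. Of 14 listed relatives, 6 passed the filter. Of these, 2 were called higher and none lower, against 1.47% of all tested genes called higher. Postn, which encodes periostin, a fasciclin-domain relative of TGFBI, had 327, 252 and 2024.6 CPM in ISO replicates 1 to 3, against 23.3, 12.6 and 13.7 CPM in saline replicates 1 to 3 (log2 fold change 5.71, SE 0.88, edgeR adjusted p = 0.02). Stab1, a macrophage scavenger receptor with fasciclin domains that takes up SPARC, had 90.5, 89.7 and 109 CPM in ISO, against 53.1, 59.1 and 44.3 CPM in saline (log2 fold change 0.89, SE 0.14, edgeR adjusted p = 0.0204). Fstl1, a secreted member of the SPARC family chosen once its values were known, averaged 254 CPM in ISO against 132 CPM in saline without reaching the threshold (log2 fold change 0.95, edgeR adjusted p = 0.0942).

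Other tenascins and lecticans were low. Tnn, the gene of tenascin W, was also chosen once its values were known. It had 4, 6 and 460 counts in ISO replicates 1 to 3, against 0, 0 and 2 counts in saline replicates 1 to 3, and did not pass the filter. Its counts were thus concentrated in ISO replicate 3, the library with the most Tnc. Cilp2, the paralog of Cilp, was chosen in the same way and had 128, 1 and 9 counts in ISO replicates 1 to 3, against 138, 0 and 0 counts in saline replicates 1 to 3. It was thus high in replicate 1 of each group, the libraries with the highest valve and tendon marker levels, and did not separate ISO from saline as Cilp did.

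Of 24 tested genes of other matricellular and pericellular matrix proteins, 8 were called higher and none lower, against 1.47% of all tested genes called higher, and the median log2 fold change was 0.84. Thbs4, a thrombospondin, changed by 5.51 (SE 0.59, edgeR adjusted p = 0.0115), with 168 ± 89.7 CPM in ISO against 3.71 ± 2.49 CPM in saline. Fbln1, which encodes fibulin 1, a binding partner of fibronectin, changed by 1.05 (SE 0.12, edgeR adjusted p = 0.0138), and Lgals3, the galectin 3 gene that macrophages express strongly, by 2.16 (SE 0.28, edgeR adjusted p = 0.0142). Of 13 tested collagens, 5 were called higher and none lower, with a median of 1.12. Among them Col3a1 changed by 1.88 (edgeR adjusted p = 0.0204), Col8a1 by 2.10 (edgeR adjusted p = 0.0274) and Col6a2 by 0.76 (edgeR adjusted p = 0.0327).

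The receptors were mostly not called. Of 25 tested receptor genes, 1 was called higher, namely Stab1, and none lower, where 1.47% of all tested genes were called higher. The median log2 fold change was 0.22. Of the fibronectin receptor subunits, chosen once their values were known, Itga5 averaged 127 CPM in ISO against 122 CPM in saline (log2 fold change 0.06, SE 0.09) and Itgb1 462 CPM in ISO against 472 CPM in saline (log2 fold change −0.03, SE 0.15). Itga8, which pairs with Itgb1 to bind fibronectin and tenascin C, averaged 25.1 CPM in ISO against 10.4 CPM in saline without reaching the threshold (log2 fold change 1.27, SE 0.34, edgeR adjusted p = 0.0775).

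Of 19 tested genes of hyaluronan synthesis, versican cleavage and matrix crosslinking, none was called by edgeR, with a median of 0.52. In this list 8 of the 19 reached an unadjusted edgeR p under 0.05, each higher in ISO, as did 12.0% of all tested genes. DESeq2 called 5, where it called 5.46% of all tested genes higher, and voom called 0. The most abundant were Tgm2, a transglutaminase that crosslinks fibronectin, at 0.02 (SE 0.15, edgeR adjusted p = 0.9), and Loxl1, a lysyl oxidase, at 1.59 (SE 0.39, edgeR adjusted p = 0.068). Of 21 tested TGF-beta signalling genes, with a median of 0.12, 3 were called higher and none lower, where 1.47% of all were called higher. They were the ligand gene Tgfb3 at 1.19 (edgeR adjusted p = 0.0281) and the latent binding protein genes Ltbp3 at 0.91 (edgeR adjusted p = 0.0289) and Ltbp2 at 3.08 (edgeR adjusted p = 0.0376), while receptor and SMAD genes were not called.

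The calls of genes outside the 8 also changed when single libraries were left out, in fits chosen after the data were seen. These fits were read for 16 such genes named here that edgeR called with all libraries, but not for Aebp1. Of the 16, 15 were called without ISO replicate 2 and 13 without ISO replicate 3. Without ISO replicate 1, saline replicate 1 or saline replicate 3, edgeR called 1 of the 16, namely Thbs4, and without saline replicate 2 or with the replicate number as a block it called none. Every one of the 16 kept its direction in these fits. In the fits that called at most 1 of the 16, 0.0427% to 0.109% of all tested genes were called higher, against 1.47% with all libraries. Between fits that left out 1 library, the number called higher ran from 0 to 14 for the other matricellular and pericellular matrix genes, from 0 to 10 for collagens, from 0 to 7 for macrophage markers, from 0 to 5 for resting fibroblast markers and from 0 to 4 for activated fibroblast markers.

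**Figure D4:**
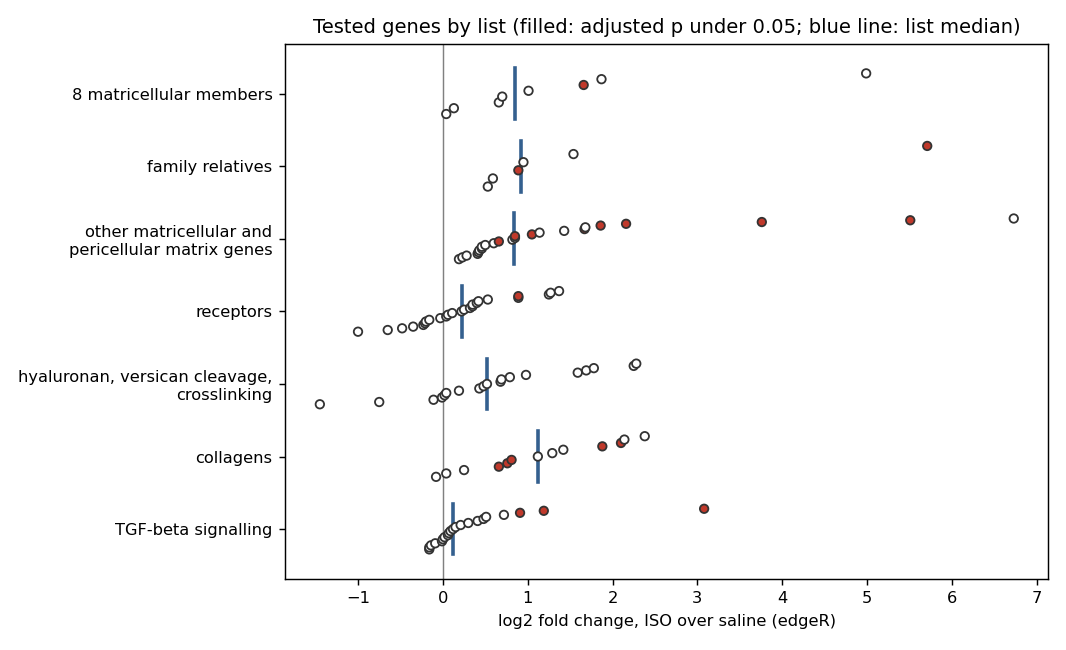
Log2 fold change of ISO over saline for each tested gene, by list, with filled points for an adjusted p under 0.05 and a blue line at each list's median. The medians run from 0.12 for TGF-beta signalling genes to 1.12 for collagens, with 0.86 for the 8 matricellular genes.

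The genes whose levels over the 6 libraries were most like the mean profile of the 8 were found among 8559 other genes that averaged 10 CPM or more. They were Rab31, Timp1, Fndc1, Capg and Mxra8, with Pearson r of 0.9951 to 0.9972, and 186 genes reached 0.95. The libraries are few and fall into the treatment groups, so no test was made. Timp1, an inhibitor of matrix metalloproteinases, had 31.6, 20.4 and 81.9 CPM in ISO replicates 1 to 3, against 10.4, 11.8 and 11.4 CPM in saline replicates 1 to 3, with the same order of ISO libraries as Fn1 and Tnc.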

How the data were processed

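The authors aligned paired reads from 6 rat hearts with HISAT2 and counted them with featureCounts, per the labels' series description, and deposited raw read counts per gene. Versions and strand setting are not stated, so reads of a gene and of an antisense or overlapping neighbour may be mixed. The build named in the submitters' processing notes is mm10, a mouse build, although the gene identifiers are rat. The table has 33889 rows. The 1006 rows without a gene name (0.981% to 1.322% of counts) were left out.

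The main test used edgeR 4.0.16 under R 4.3.3 (quasi-likelihood F test, TMM scaling, default filter, Benjamini-Hochberg adjustment over all 13766 tested genes). Each fold change is the log2 ratio of ISO to saline, and an SE is the fold change over the square root of F. Log2 levels used a prior count of 2. Alternatives were other scaling and filters, DESeq2 1.42.0, voom in limma 3.58.1, the series' call rule, mitochondrial genes left out, a replicate block and each library left out. A floor of 3 reads equals 0.175 to 0.204 CPM. No 2 libraries agreed within sampling noise. The tests were tested on simulated data.

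The members and the gene lists were chosen with earlier results of these data known. Named genes were the members, up to 3 called genes of each list (otherwise the 2 most abundant) and the 5 nearest profiles. Coordinates and sequences are those of RefSeq, GRCr8, cut where the gene's annotated span reached further upstream.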

Additional observations from a re-analysis of the deposited data

How the results depend on the processing

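Over 15 alternatives, 101 of 118 log2 fold changes of the 8 matricellular genes kept their direction and their side of the threshold. Of the rest, 12 became called, 4 lost the call and 1 changed sign. Of the 101, 11 were of Cilp, the only gene of the 8 that edgeR called with all libraries. The series' rule was applied to the DESeq2 fit, so these alternatives share their fold changes. The sign change was Smoc2 at −0.08 without ISO replicate 3, where values without 1 library ran from −0.08 to 0.14, and all lost calls were of Cilp, without each saline library and with the replicate block (1.59, edgeR adjusted p = 0.0781). DESeq2 gave no p for Tnc. The 8 genes called higher numbered 2 with no filter, 3 by DESeq2, 4 by the series' rule and 0 with the replicate block, and from 0 to 6 when 1 library was left out, against 1 with all libraries. None was called lower under any alternative.

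Over all genes, 203 were higher and 206 lower. Without a filter 322 were higher, without scaling 123 were lower and 280 higher, DESeq2 gave 752 and 653, the series' rule 1214 and 623, and the replicate block 15 and 13. Leaving out 1 library gave 6 to 492 higher and 5 to 346 lower. Without scaling the median log2 fold change of all genes was 0.13. Same-numbered libraries showed little shared deviation (correlations of −0.0989 to 0.0874 across genes). With so few libraries, these correlations cannot show whether the numbers pair the rats. The Sparc to Sparcl1 ratio difference stayed above 0 in every alternative, at 0.40 to 0.71 when 1 library was left out. It was 0.53 with the replicate block (exact sign-flip permutation p = 0.25). That p is the smallest that 3 same-numbered pairs allow. The ratio of Tnc to Tnxb was not run. The lowest count of any of the 8 genes in a library was 40, for Tnc. The cause of these shifts was not tested.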
